A study of Mus musculus with 6 samples.

Results

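The *Egr* transcription factors (*Egr1*, *Egr2*, *Egr3* and *Egr4*) and the *Nab* corepressors (*Nab1* and *Nab2*) were followed by RNA-seq in cultured fibroblasts of mouse embryos (MEFs), a primary connective tissue cell. The members were chosen by gene symbol, and all 6 were found among the 17092 genes of the deposited table. They were picked with the difference between these same libraries already known, so their values are given as a description, without p-values. Both genotypes were sequenced, with 3 libraries each. The WT group carried no targeted allele, and the other group came from *Aff3ir-ORF2-/-* mice, whose line was made with Cas9 and guides against *Aff3ir-ORF2*, a reading frame of a gene nested in *Aff3*. The deletion is not limited to a cell type. The sample titles call this group KO. The labels give no age or sex of the embryos and do not say whether the libraries of a genotype came from separate embryos or cultures, so the tests measure the spread between these libraries, which may be technical. No treatment of the cells is named for the RNA-seq.

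Egr proteins are zinc-finger transcription factors that bind GC-rich elements in promoters. Their genes are immediate-early genes: serum, growth factors and mechanical stress switch them on within minutes through the ERK kinase cascade, which acts on serum response factor (Srf) and its ETS-family partners bound to CArG boxes. Nab proteins do not bind DNA themselves but attach to Egr1, Egr2 and Egr3 and mostly hold their activity down, in part through the NuRD chromatin complex, and *Nab2* is known to be induced by Egr proteins as a feedback brake. Egr4 lacks the domain that Nab proteins bind. In tissues, Egr1 is studied in vessel injury and fibrosis, Egr2 in the myelin programme of Schwann cells, and Egr2 and Egr3 in lymphocytes.

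The libraries held 17435133 to 17726034 estimated counts in WT and 18209421 to 18252330 in *Aff3ir-ORF2-/-* MEFs. The targeted transcript was not used here and so gave no check of the labels. For *Aff3*, the parent gene, the WT libraries held 406, 406 and 418 counts and the *Aff3ir-ORF2-/-* libraries 229, 186 and 209, and reads of the nested gene may enter these counts. The *Aff3ir-ORF2-/-* libraries differed more among themselves than the WT libraries, with a common biological coefficient of variation of 0.0996 against 0.0185, and *Aff3ir-ORF2-/-* replicate 2 stood apart from replicates 1 and 3: chi-square over degrees of freedom was 14.9 and 18.9 against them and 5.56 between them. Fibroblast markers were abundant in all libraries: the 12 genes summed to 21642 to 21662 CPM (counts scaled to library size, with TMM factors) in WT and to 14288 to 19328 in *Aff3ir-ORF2-/-* MEFs. Macrophage markers differed with the genotype. All 18 listed were higher in *Aff3ir-ORF2-/-* MEFs, with a summed level of 23.0 to 26.4 CPM in WT and 1370 to 2343 CPM in *Aff3ir-ORF2-/-* libraries, and *C1qa*, *C1qb* and *Fcgr1* were at 0 counts in every WT library. The part of this difference in the *Egr* and *Nab* values below was not tested. In bulk RNA, fewer cells that express a gene and less of its RNA per cell cannot be told apart.

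Promoter windows were matched for 4 members, *Egr2*, *Egr4*, *Nab1* and *Nab2*, and are printed to show which known elements they hold. Those of *Egr1* and *Egr3* were not analysed here. Each holds 250 bases before and 50 bases from the transcript start on, from RefSeq on GRCm38.p6, 5′ to 3′ on the strand of the gene. *Egr2* has 5 windows, 4 of them with a CArG box. Its windows that begin at 67537619, 67537620 and 67537680 overlap and hold the same box. *Egr2* is shown at start C (chr10:67537619-67537918, plus strand) and *Egr4* at chr6:85513540-85513839 (minus strand). *Nab1* is shown at chr1:52500399-52500698 (minus strand) and *Nab2* at chr10:127666654-127666953 (minus strand). Capitals mark a CArG box in *Egr2*, CRE core sites in *Egr4*, on the other strand, and Egr sites in *Nab1*, the first of them on the other strand, and *Nab2* has none of these.
Egr2: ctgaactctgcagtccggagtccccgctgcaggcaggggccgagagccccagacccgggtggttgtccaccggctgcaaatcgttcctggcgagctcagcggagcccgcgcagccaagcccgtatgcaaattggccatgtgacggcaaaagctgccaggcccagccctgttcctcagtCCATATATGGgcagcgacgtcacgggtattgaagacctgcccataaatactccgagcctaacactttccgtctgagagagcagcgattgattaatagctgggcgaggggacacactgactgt
Egr4: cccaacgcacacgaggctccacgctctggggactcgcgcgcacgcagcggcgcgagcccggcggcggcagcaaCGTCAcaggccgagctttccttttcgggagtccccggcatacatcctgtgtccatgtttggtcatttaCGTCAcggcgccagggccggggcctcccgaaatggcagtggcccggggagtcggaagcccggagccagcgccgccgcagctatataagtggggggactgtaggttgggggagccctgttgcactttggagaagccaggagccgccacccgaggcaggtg
Nab1: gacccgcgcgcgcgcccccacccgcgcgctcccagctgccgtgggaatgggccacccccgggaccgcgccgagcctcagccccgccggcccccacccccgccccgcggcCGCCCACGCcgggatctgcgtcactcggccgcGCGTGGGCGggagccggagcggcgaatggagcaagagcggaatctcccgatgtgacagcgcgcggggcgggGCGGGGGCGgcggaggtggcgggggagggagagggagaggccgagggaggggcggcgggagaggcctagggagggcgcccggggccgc
Nab2: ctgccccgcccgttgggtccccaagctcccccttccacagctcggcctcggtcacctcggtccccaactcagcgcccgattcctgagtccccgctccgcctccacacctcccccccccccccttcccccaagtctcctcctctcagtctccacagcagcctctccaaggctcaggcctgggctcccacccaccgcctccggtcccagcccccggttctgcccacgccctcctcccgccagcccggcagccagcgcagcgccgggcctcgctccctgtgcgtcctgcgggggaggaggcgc

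The 3 motifs below were searched on both strands: the CArG box by its usual consensus, the Egr site as GCGTGGGCG or GCGGGGGCG, and the core of the cyclic AMP response element (CRE) as TGACG. No Egr site overlapped another motif. Positions are counted in bases from the transcript start, negative before it. The shown *Egr2* window had a CArG box, CCATATATGG, at -72 to -63, and CRE core sites at -111 to -107 and at -55 to -51. The window of start B (chr10:67537316-67537615) held another CArG box, CCTTTTTTGG, at -72 to -63 from its own start. Of all 32851 promoter windows of this length, 1.63% held a CArG box. *Egr4* had CRE core sites at -177 to -173 and at -109 to -105. This core is common and was found in 20.8% of all windows. *Nab1* had 3 Egr sites, at -141 to -133, -109 to -101 and -38 to -30, where 3.47% of all windows held at least 1. It also held a CRE core site at -123 to -119. *Nab2* held none of the 3 motifs in its window. The *Nab1* and *Nab2* windows were 81.7% and 74.0% G and C, against a median of 52.7% over all windows. These matches are letters in a window, and the data hold no binding.

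**Figure D1:**
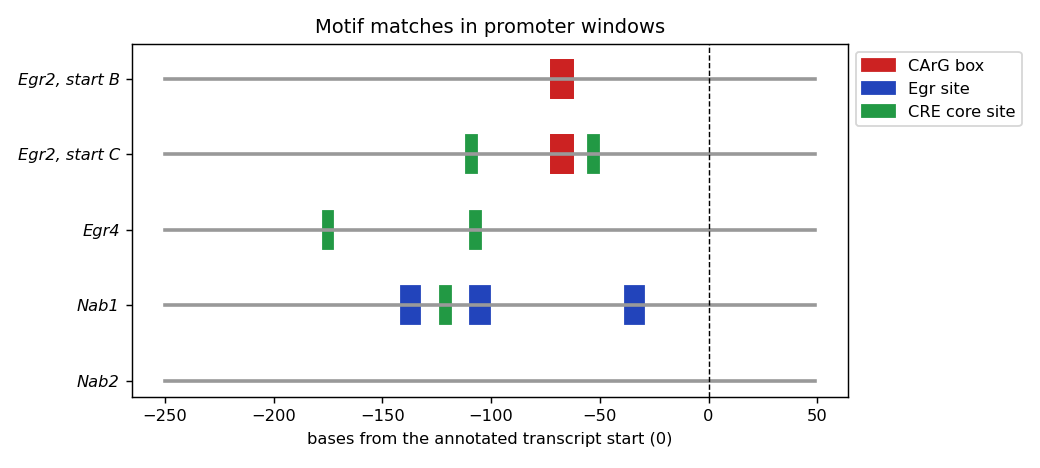
Matches to the CArG box, the Egr site and the CRE core site (TGACG) along promoter windows of 250 bases before to 50 bases after the annotated transcript start, by gene. *Egr2* start B and start C are separate annotated starts. The CArG boxes lie at -72 to -63 from these starts, the 3 Egr sites lie in *Nab1*, and *Nab2* has no match.

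The *Egr* genes were low in *Aff3ir-ORF2-/-* MEFs and the *Nab* genes were not. *Egr1*, the family member induced in most cell types, was at 374, 379 and 320 CPM in WT replicates 1, 2 and 3 and at 46.4, 42.9 and 55.4 CPM in *Aff3ir-ORF2-/-* replicates 1, 2 and 3. The lowest WT library lay far above the highest *Aff3ir-ORF2-/-* library. The mean was 358 ± 32.5 against 48.3 ± 6.46 CPM (SD, n = 3 each), 7.41-fold lower, with a fitted log2 fold change of -2.89 (standard error 0.11). *Egr2* (Krox20) was at 49.9, 50.9 and 49.6 CPM in WT and at 4.94, 3.33 and 4.41 CPM in *Aff3ir-ORF2-/-* MEFs. The WT libraries lay within about 1 CPM of each other, and no *Aff3ir-ORF2-/-* library came near them. It was 11.9-fold lower (log2 fold change -3.57, standard error 0.11). *Egr3*, a close relative needed for muscle spindles, was at 35.5, 36.2 and 31.2 CPM in WT and at 2.69, 3.17 and 3.38 CPM in *Aff3ir-ORF2-/-* MEFs, with no overlap. It was 11.1-fold lower (log2 fold change -3.47, standard error 0.11), and its distance from *Egr2* was within the standard errors. Without *Aff3ir-ORF2-/-* replicate 2, the log2 fold changes of *Egr1*, *Egr2* and *Egr3* were -2.81, -3.43 and -3.50.

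*Egr4*, best known from neurons, was scarce throughout. It was counted 10, 8 and 16 times in WT and 1, 0 and 2 times in *Aff3ir-ORF2-/-* libraries. The groups did not overlap here either, but every *Aff3ir-ORF2-/-* library was at or under the detection floor of 3 counts. Summed over libraries, 34 against 3 counts gave a ratio of 11.7 after scaling to library size, with an exact 95% interval of 3.69 to 59.7 that covers counting error only. The interval leaves out the spread between libraries. Since *Egr4* was chosen on this contrast, the interval is no test of a difference. With so few counts *Egr4* was left out by the filter on low counts and has no fitted fold change.

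**Figure D2:**
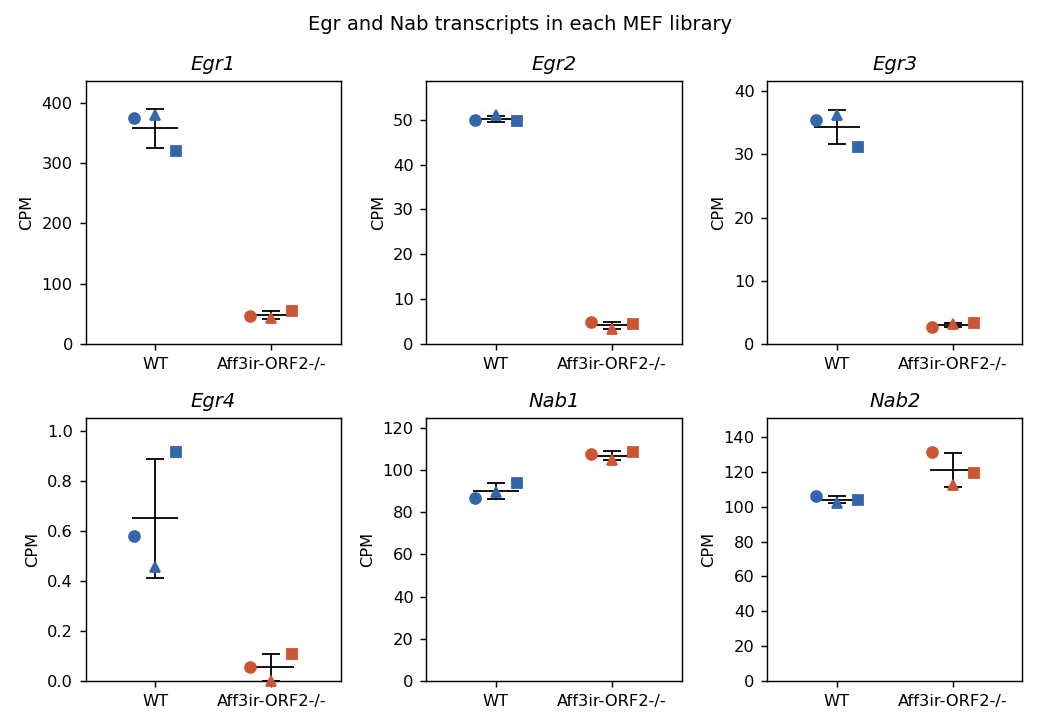
CPM of each member in each library, with a linear axis from 0 in every panel; circles, triangles and squares are replicates 1, 2 and 3, and the line and bars are the mean and SD of 3 libraries. The 4 *Egr* genes lie lower in each of the *Aff3ir-ORF2-/-* libraries than in any from WT, and *Nab1* and *Nab2* lie higher by a small margin.

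The corepressor genes lay the other way by a small amount. *Nab1* was at 86.7, 89.5 and 93.9 CPM in WT and at 107, 105 and 108 CPM in *Aff3ir-ORF2-/-* MEFs. The groups did not overlap, and the difference was 1.19-fold (log2 fold change 0.25, standard error 0.05). *Nab2*, the feedback corepressor, was at 106, 102 and 104 CPM in WT and at 131, 112 and 119 CPM in *Aff3ir-ORF2-/-* MEFs. Its groups did not overlap either, although *Aff3ir-ORF2-/-* replicate 2 was only about 6 CPM above the highest WT library. The difference was 1.16-fold (log2 fold change 0.22, standard error 0.06). Under the other scalings and without any 1 library, the log2 fold change stayed between 0.22 and 0.28 for *Nab1* and between 0.15 and 0.26 for *Nab2*.

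Of the 6 members, 5 passed the filter and were fitted. At an adjusted p under 0.05 and a change of at least 1.5-fold, 3 were lower (*Egr1*, *Egr2* and *Egr3*) and none higher, where 7.27% of the 13075 tested genes were lower and 14.2% higher by the same rule. By adjusted p alone, 3 were lower and 2 higher, against 27.5% and 29.3% of all tested genes. Since the members were chosen on this contrast, nothing is read from these counts. The genotypes did not overlap for any of the 5, with the 3 *Egr* genes lower and the 2 *Nab* genes higher, against 32.7% and 33.3% of all tested genes. Ordered by fitted log2 fold change, *Egr2*, *Egr3* and *Egr1* ranked 6, 7 and 12 from the lowest of the 13075 genes. *Nab2* and *Nab1* ranked 9016 and 9268.

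**Figure D3:**
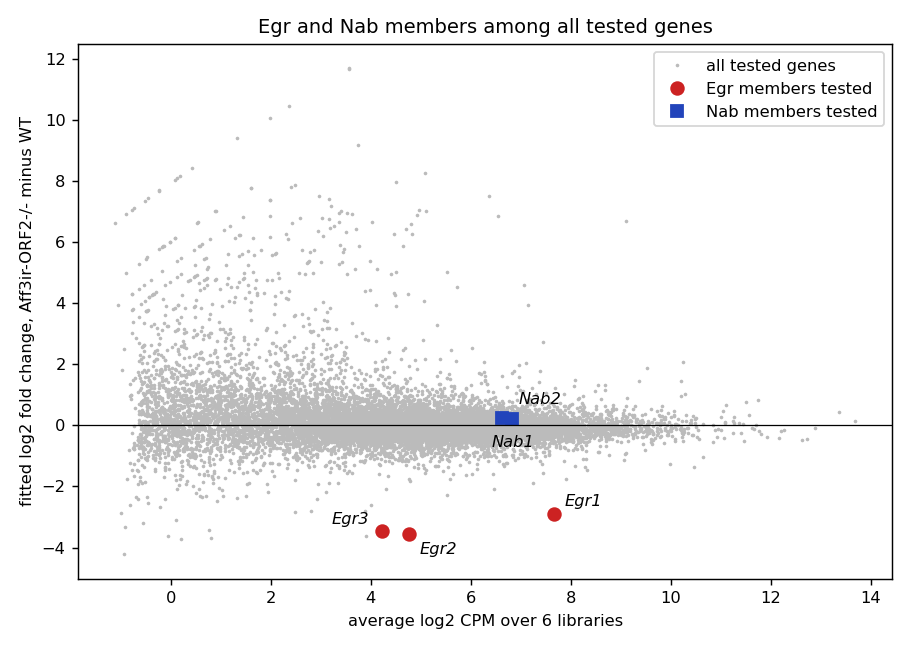
Fitted log2 fold change (*Aff3ir-ORF2-/-* minus WT) against the average log2 CPM of the 13075 tested genes, in grey, with the tested *Egr* genes as red circles and the *Nab* genes as blue squares. *Egr1*, *Egr2* and *Egr3* lie at -2.89, -3.57 and -3.47, at the lower edge of the genes of like level, and *Nab1* and *Nab2* at 0.25 and 0.22.

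To compare levels between genes, counts were divided by the length of the longest GENCODE M21 transcript and scaled to a fixed total per library (TPM). In WT MEFs the order was *Egr1* at 242 ± 21.4 TPM, *Nab2* at 122 ± 1.86, *Nab1* at 70.5 ± 3.13, *Egr2* at 51.3 ± 0.771, *Egr3* at 26.4 ± 2.02 and *Egr4* at 0.918 ± 0.339 (SD, n = 3). Neighbours in this order did not overlap between libraries. With the median length of the coding transcripts, a choice made after the data were seen, *Egr2* (93.8 TPM) stood above *Nab1* (41.7 TPM), so the order of this pair rests on the length used. In *Aff3ir-ORF2-/-* MEFs both *Nab* genes stood first, with *Nab2* at 144 ± 9.71 and *Nab1* at 84.5 ± 0.389 TPM. *Egr1* followed at 33.0 ± 4.0, *Egr2* at 4.36 ± 0.787, *Egr3* at 2.40 ± 0.282 and *Egr4* at 0.0771 ± 0.0769 TPM (SD, n = 3), again without overlap of neighbours.

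The balance of factors to corepressors followed from these levels. The summed *Egr* level was 1.72, 1.77 and 1.49 times the summed *Nab* level in the WT libraries, in replicate order, and 0.162, 0.163 and 0.199 of it in *Aff3ir-ORF2-/-* MEFs. *Egr* transcripts outnumbered *Nab* transcripts in every WT library and were outnumbered in every *Aff3ir-ORF2-/-* library. The mean ratio was 1.66 ± 0.148 against 0.175 ± 0.0210 (SD, n = 3), and 1.61 against 0.157 with the median coding length. *Egr1* made up 75.4% ± 1.21 of the summed *Egr* level in WT and 82.8% ± 1.28 in *Aff3ir-ORF2-/-* MEFs. *Nab2* made up 63.5% ± 1.17 and 62.9% ± 1.62 of the summed *Nab* level (SD, n = 3), with overlapping libraries. The size of these shares rests on the length used. With the median coding length, *Egr1* made up 58.1% in WT and 68.7% in *Aff3ir-ORF2-/-* MEFs, and *Nab2* 75.7% and 75.2%. These are RNA levels and give no protein amount.

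**Figure D4:**
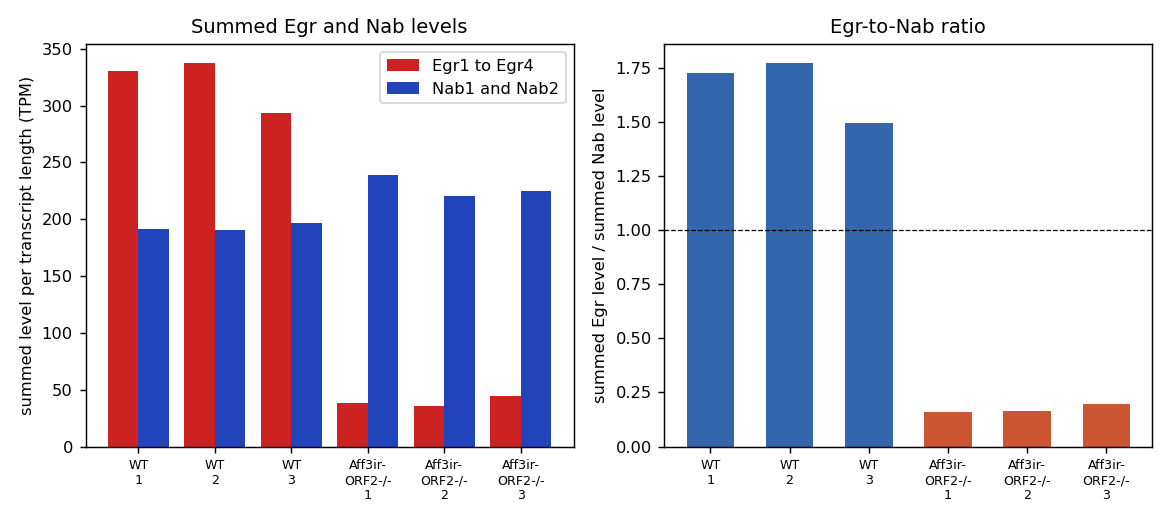
Summed level per transcript length (TPM, longest transcript) of the 4 *Egr* and both *Nab* genes in each library, and their ratio, with a dashed line at equal levels. The ratio is 1.49 to 1.77 in WT and 0.162 to 0.199 in *Aff3ir-ORF2-/-* libraries.

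For the inputs to *Egr* transcription, RNA levels were read from a list of 24 genes from Ras to Srf, all tested. These levels give no kinase activity. At both thresholds 3 were lower in *Aff3ir-ORF2-/-* MEFs and none higher, beside 7.27% and 14.2% of all tested genes. By adjusted p alone the list ran both ways, with 6 lower and 7 higher, beside 27.5% and 29.3%. The median log2 fold change was 0.03, near that of all tested genes (0.0056). *Srf*, the factor that binds CArG boxes, fell from 179 ± 3.26 to 92.7 ± 11.6 CPM (SD, n = 3; log2 fold change -0.95, standard error 0.08, adjusted p = 2.60e-05). *Rps6ka5*, a kinase below ERK that acts on chromatin and CREB, fell by 1.05 on the log2 scale (adjusted p = 3.73e-05). *Elk4*, one of the ETS partners of Srf, fell by 0.73 (adjusted p = 0.00102). *Elk1*, another ETS partner, lay the other way by less than 1.5-fold (log2 fold change 0.43, adjusted p = 3.04e-04). The adaptor gene *Shc1* was at 0.17 on the log2 scale (adjusted p = 0.00647), also under 1.5-fold.

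Other early genes that the same inputs switch on were lower in part. Of the 8 AP-1 genes, which encode Fos, Jun and Atf3 proteins, 5 were lower and none higher, with a median log2 fold change of -0.86. Over all tested genes, 7.27% were lower and 14.2% higher by the same rule. *Fosb* fell from 28.0 ± 5.21 to 2.26 ± 0.234 CPM (SD, n = 3; log2 fold change -3.62, adjusted p = 1.02e-06), a size near that of *Egr2*. *Fos* fell by 1.20 on the log2 scale (adjusted p = 6.57e-05), *Jun* by 1.03 (adjusted p = 1.60e-04) and *Junb* by 0.70 (adjusted p = 3.68e-05). *Fosl1*, named after its values were seen, fell by 1.61 (adjusted p = 6.19e-04). *Fosl2*, the most counted of the list, was at 0.12 on the log2 scale (adjusted p = 0.14).

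Of 20 further early genes, 9 were lower and none higher (median log2 fold change -0.48), beside 7.27% and 14.2% of all tested genes. By adjusted p alone 13 were lower and 1 higher, beside 27.5% and 29.3%. The higher gene was *Mcl1*, named after its values were seen (log2 fold change 0.25, adjusted p = 6.79e-04). *Ier2* fell from 64.3 ± 4.99 to 22.8 ± 1.85 CPM (SD, n = 3; log2 fold change -1.50, adjusted p = 1.16e-06), *Nr4a1*, an orphan nuclear receptor, fell by 1.89 on the log2 scale (adjusted p = 1.44e-05), *Zfp36*, which speeds the decay of AU-rich mRNAs, by 1.41 (adjusted p = 3.55e-06) and *Klf6* by 0.96 (adjusted p = 2.77e-06). The matricellular gene *Ccn1* fell by 1.25 (adjusted p = 9.97e-05). *Ccn2* was at -0.55 (adjusted p = 0.0106) and was not called. With a 2-fold change required, 5 of the 20 were lower. Of 13 tested ERK feedback genes, 7 were lower and 1 higher (median log2 fold change -0.75), beside the same 7.27% and 14.2%. They code for phosphatases, Sprouty proteins and ETS factors that ERK induces, and 2 were lower at 2-fold. *Dusp6*, the phosphatase that switches ERK off, fell by 0.92 on the log2 scale (adjusted p = 1.10e-04), *Spry2* by 0.75 (adjusted p = 2.88e-04), *Etv4* by 0.76 (adjusted p = 6.85e-04) and *Dusp4* by 0.84 (adjusted p = 0.00478). *Etv1* was the gene that rose, by 1.27 (adjusted p = 7.89e-05), and *Spred1* was at 0.14 (adjusted p = 0.0285), under 1.5-fold. Without *Aff3ir-ORF2-/-* replicate 2, 5 AP-1, 8 other early and 7 feedback genes were lower. These 3 lists were written with the low values of several of their genes already known.

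**Figure D5:**
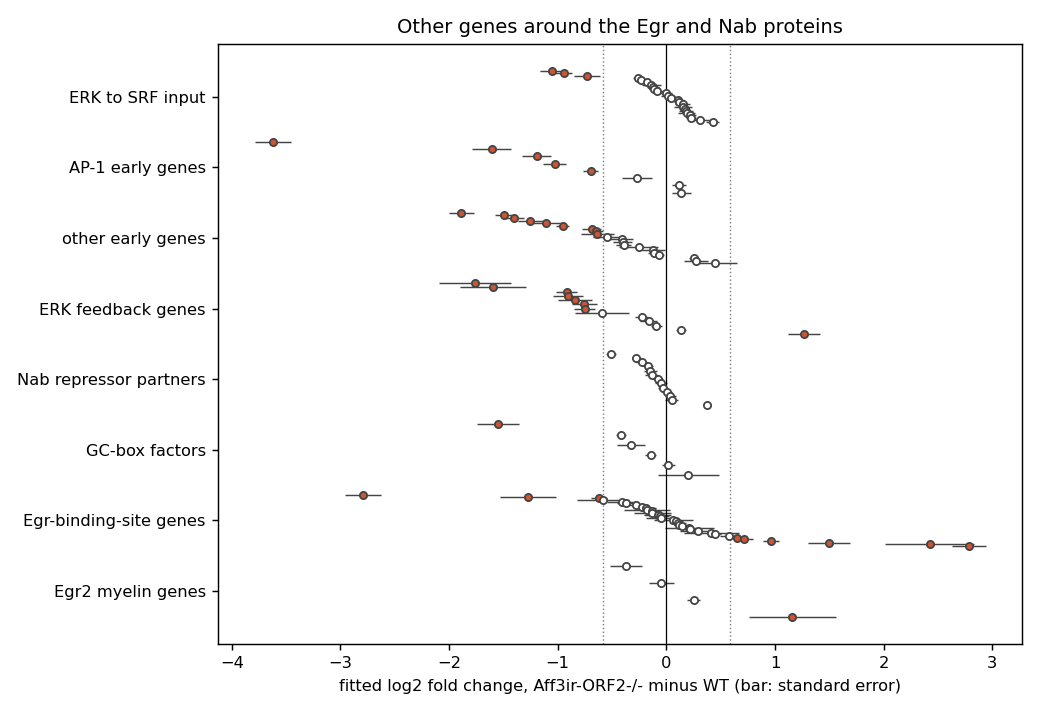
Fitted log2 fold change (*Aff3ir-ORF2-/-* minus WT) with its standard error for every tested gene of the 8 lists; filled points passed an adjusted p of 0.05 and a 1.5-fold change, which the dotted lines mark. Over all tested genes, 7.27% were lower and 14.2% higher by this rule. Filled points lie only on the lower side for AP-1 (5 of 8), other early genes (9 of 20), ERK to SRF input (3 of 24) and GC-box factors (1 of 6). They lie on both sides for ERK feedback genes (7 lower and 1 higher of 13) and for the genes with known Egr sites (3 lower and 6 higher of 32).

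For the proteins through which Nab represses, RNA levels were read from 13 NuRD genes, all tested. None passed both thresholds, beside 21.4% of all tested genes. By adjusted p alone 4 were lower and 1 higher, beside 27.5% and 29.3% of all tested genes. *Chd4*, the remodelling enzyme that Nab2 contacts, was at 380 ± 6.21 CPM in WT and 492 ± 5.05 CPM in *Aff3ir-ORF2-/-* MEFs (SD, n = 3; log2 fold change 0.37, adjusted p = 4.78e-05). The log2 fold change was -0.51 for the histone-binding subunit *Rbbp4* (adjusted p = 1.40e-05), -0.28 for the deacetylase *Hdac2* (adjusted p = 3.37e-04) and -0.23 for *Hdac1* (adjusted p = 0.00343). Of 6 factors that bind like GC-rich elements, 1 was called lower and none higher, beside 7.27% and 14.2% of all tested genes. The gene called lower was *Klf5* (log2 fold change -1.55, adjusted p = 2.37e-04). *Sp1* was at -0.42 (adjusted p = 6.64e-05), *Maz* at -0.14 (adjusted p = 0.0269) and *Sp4* at -0.33 (adjusted p = 0.0523), all under 1.5-fold.

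Genes with known Egr sites went in both directions. The list was not made from the promoter windows. Of its 26 genes with a window, 4 held an Egr site there (*Bcl2l11*, *Fgf2*, *Mmp14* and *Tgfb1*), beside 3.93% of all genes. Of 36 listed, 32 were tested, and 3 were lower and 6 higher, with a median log2 fold change of 0.08. Over all tested genes, 7.27% were lower and 14.2% higher. *Arc*, a neuronal early gene, was counted 205, 233 and 201 times in WT and 40, 24 and 33 times in *Aff3ir-ORF2-/-* MEFs (log2 fold change -2.79, standard error 0.17, adjusted p = 2.03e-06). The growth factor genes *Hbegf* and *Igf2*, named after their values were seen, fell by 1.28 (adjusted p = 0.00854) and 0.62 (adjusted p = 1.25e-04). *Icam1*, an adhesion receptor for leukocytes, rose from 3.82 ± 0.0907 to 26.4 ± 4.89 CPM (SD, n = 3; log2 fold change 2.79, adjusted p = 2.36e-06). *Cdkn1a* (p21), a cell cycle inhibitor, rose by 0.65 on the log2 scale (adjusted p = 2.03e-06) and the growth factor gene *Fgf2* by 0.96 (adjusted p = 8.28e-06). The growth factor gene *Pdgfa* rose by 0.71 (adjusted p = 5.44e-05), *Pdgfb* by 2.42 from 3 to 4 counts per WT library (adjusted p = 7.57e-04), and the heparanase gene *Hpse* by 1.5 (adjusted p = 1.62e-04), all 3 named after their values were seen. The macrophage markers, which lay higher in the same libraries, had a median log2 fold change of 6.52, and their part in these values was not tested. The most counted genes of the list, *Thbs1* and *Fn1*, were at 0.14 (adjusted p = 0.0322) and 0.45 (adjusted p = 2.38e-04), below 1.5-fold.

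Of the myelin genes that Egr2 drives in Schwann cells, 7 were analysed and 4 had enough counts to test. *Pmp22* was at 75.7 ± 0.733 CPM in WT and 90.1 ± 6.86 CPM in *Aff3ir-ORF2-/-* MEFs (SD, n = 3; log2 fold change 0.25, adjusted p = 0.00473), and *Prx* was at -0.37 (adjusted p = 0.0577). *Mbp* was at -0.05 (adjusted p = 0.758). *Sox10* was called higher from 7, 12 and 16 against 24, 18 and 41 counts (adjusted p = 0.0322). It lost this call without WT replicate 1, without WT replicate 2 and without *Aff3ir-ORF2-/-* replicate 3, when no gene of the list was called. Of 6 tested Schwann and neural markers, 4 were higher, *Sox10* among them, and 2 were lower, the neuronal genes *Tubb3* (log2 fold change -1.0, adjusted p = 3.53e-04) and *Map2* (-1.18, adjusted p = 1.20e-04). Over all tested genes, 14.2% were higher and 7.27% lower by the same rule. The 10 listed Schwann and neural markers summed to 45.5 to 50.6 CPM in WT and 27.2 to 49.1 CPM in *Aff3ir-ORF2-/-* MEFs. *Gfap*, which was not tested, gave 18.9 CPM of the highest sum, in *Aff3ir-ORF2-/-* replicate 3, from 347 counts against 4 and 12 in replicates 1 and 2.

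In the T cell and endothelial lists, 1 or 2 genes set most of the difference in the sums. Of 8 T cell genes 4 were in the table, and their sum of 1.43 to 1.48 CPM in WT and 8.89 to 14.6 CPM in *Aff3ir-ORF2-/-* MEFs was mostly *Il7r*, at 8.01, 11.4 and 13.7 CPM in the latter. *Lck* was at -0.29 on the log2 scale (adjusted p = 0.511), and *Cd4* and *Cd8a* had 0 to 8 counts per library and were not tested. Of 5 tested endothelial genes, 1 was lower (*Cdh5*, log2 fold change -0.90, adjusted p = 0.0294) and 2 higher (*Kdr*, 1.01, adjusted p = 0.00668, and *Vwf*, 2.24, adjusted p = 8.56e-05), with a median of -0.39. At both thresholds, 7.27% of all tested genes were lower and 14.2% higher. *Tek* and *Egfl7* were at -1.28 and -0.39 and were not called. The endothelial sum was 11.1 to 11.7 CPM in WT and 16.5 to 22.2 CPM in *Aff3ir-ORF2-/-* MEFs. The epithelial list had 1 tested gene, which was not called, and summed to 4.12 to 4.86 against 3.65 to 5.43 CPM. These genes were named after their values were seen.

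Across the 6 libraries, the genes whose log2 CPM ran most like that of *Egr1* were *Gmeb2*, *Steap3*, *2410002F23Rik*, *Naa35* and *Ier2* (Pearson r from 0.9991 to 0.9995). Of 11699 genes compared, 229 had an r over 0.99 with *Egr1*. Closest to *Nab2* were *Snx25*, *Kpna6*, *Rfxap*, *Prkag2* and *Slc25a30* (r from 0.9945 to 0.998), and 12 genes had an r over 0.99. The 6 points share the genotype difference, and no p is given. The log2 fold changes of the 5 genes closest to *Egr1* were smaller than its own, from -1.50 for *Ier2* to -0.27 for *Naa35*.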

How the data were processed

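The data were 3 RNA-seq libraries each of WT and *Aff3ir-ORF2-/-* MEFs. By the methods of the study, paired-end DNBSEQ reads were filtered with SOAPnuke, and the authors deposited a table of estimated counts for each gene, without normalization. The submitters' processing notes name the build mm8, with no role, and the aligner and counting tool are not given in the sources used here. The 6 count columns were each matched to a library by name. Counts were rounded to whole numbers (10.6% to 11.3% of values were not whole).

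After TMM scaling, edgeR 4.0.16 compared the genotypes by its robust quasi-likelihood test, with no covariate, in the 13075 genes that its filterByExpr function kept. The filter asked for a level matching 10 counts in at least 3 libraries, and 15 counts in total. A gene could pass through the libraries of 1 genotype alone, as *Pdgfb* did. Genes were called at 0.05 after Benjamini-Hochberg adjustment over the 13075 genes, if they also changed 1.5-fold. Standard errors were taken as the fitted log2 change divided by the square root of F. CPM were scaled by TMM, and TPM used transcript lengths of GENCODE M21, found for 96.4% of genes. The members, the gene lists and the tests were chosen with earlier results of these data known. Genes named beside the members are, per list, up to 4 by adjusted p and 2 by counts, and 5 genes of at least 1 log2 CPM most correlated with *Egr1* and with *Nab2* (log2 CPM with a prior count of 2). Some genes that this rule names are not reported here. RefSeq promoter sequences (GRCm38.p6) were matched by symbol for 4 members. The functions were tested on simulated data. WT libraries differed by more than counting noise (chi-square over degrees of freedom 1.38 to 1.71), so none was treated as a copy. This check cannot tell separate cultures from technical repeats of the same culture. Alternatives were other scalings, filters and thresholds, DESeq2 1.42.0, limma 3.58.1 (voom), a replicate block and leaving out each library. R 4.3.3 and Python 3.11.15 with matplotlib 3.10.9 were used.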

Additional observations from a re-analysis of the deposited data

How the results depend on the processing

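*Egr1*, *Egr2* and *Egr3* kept their direction in 14 of 14 refits each, with log2 fold changes of -3.0 to -2.81, -3.70 to -3.43 and -3.55 to -3.39, and so did *Nab1* and *Nab2*. The count of members called lower was 3 or 4, and *Egr4* was the added one where it was tested. Since the members were chosen on this contrast, nothing is read from counts of called members. The log2 fold change of *Egr4* was -3.44 with no filter. It was -2.89 without *Aff3ir-ORF2-/-* replicate 2 and -4.27 without *Aff3ir-ORF2-/-* replicate 3. With a 2-fold change in place of 1.5-fold, 317 genes were lower and 1096 higher over all tested genes (951 and 1851 at 1.5-fold), 3 genes with Egr sites were higher, 1 of the ERK to Srf genes, 5 of the other early genes and 2 of the ERK feedback genes were lower. No myelin gene was called higher with at least 10 counts in every library, and leaving out a library gave 0 to 1 of them and 0 to 1 of the other early genes higher. The remaining counts stayed within 1.5 times. Between libraries of the same replicate number, the correlation across genes of their deviations was 0.0386, 0.0424 and 0.0145. Between libraries of unlike numbers it ran from -0.0369 to 0.0046. The same numbers gave the higher values, but all were small. Whether the numbers mark pairs was not tested. With the replicate number as a block, the log2 fold change of *Egr2* was -3.57 and 3 members were called lower, as without it. Depth limits *Egr4*, at 0 to 16 counts per library.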

Other observations

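Within the *Aff3ir-ORF2-/-* group, several ERK-responsive genes were lowest in replicate 2, the library that stood apart. *Dusp5* was counted 484, 203 and 512 times in replicates 1, 2 and 3, *Phlda1* 815, 464 and 1097 times, *Dusp1* 878, 513 and 998 times and *Hbegf* 1274, 673 and 1294 times. *Egr1* and *Egr2* were also lowest there, at 42.9 and 3.33 CPM, while *Egr3* was lowest in replicate 1, at 2.69 CPM. These genes were chosen after their values were seen, and the difference between libraries of 1 genotype was not tested.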
